A study of Mus musculus with 4 samples.

Results

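The genes described here encode the co-receptors CD4 and CD8 of T cells and 4 receptors that tune T cell activation. They were chosen by name, namely Cd4, Cd8a, Cd8b1, Cd5, Cd27, Cd28 and Cd7, and all 7 of 7 were measured, among 22180 genes in all. Each had exactly 1 probe set that lists a single gene symbol (17470960 for Cd4, 17459482 for Cd8a, 17459474 for Cd8b1, 17362753 for Cd5, 17471073 for Cd27, 17213462 for Cd28 and 17273440 for Cd7). The levels came from 4 mouse Affymetrix arrays, 1 per group. All groups were C57Bl/6 mice of 8 to 10 weeks, with 10 mice (5 male, 5 female) in a pool. It is not settled by the labels whether that pool was made for each array or which arrays shared mice. The groups were intraepithelial lymphocytes (IEL, which sit among the epithelial cells of the gut) from the small intestine and from the colon of unmanipulated mice, colon IEL of recolonized mice, and T cells labelled as colon lamina propria (the LP-labelled array). The recolonized mice had drunk vancomycin, ampicillin, neomycin and metronidazole for 7 days and were then exposed for 7 days to the bacteria of untreated littermates. No array of mice given antibiotics alone was analysed here, so effects of the drugs and of recolonization cannot be told apart. T cells of all groups were enriched by magnetic removal of other cells, with an anti-EpCAM antibody against epithelial cells added. They were not sorted into CD4 and CD8 subsets.

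CD4 and CD8 bind MHC class II and class I molecules beside the T cell receptor and bring the kinase Lck to it. CD8 exists as a heterodimer of the alpha chain (Cd8a) with the beta chain (Cd8b1) on conventional cytotoxic T cells, and as an alpha homodimer on many IEL of the small intestine. Conventional T cells that were primed in lymphoid organs carry CD5, CD27 and CD28, which natural IEL are known to carry at low levels or to lack.

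Promoter sequences are shown for the 3 of the 7 genes that had one in RefSeq's promoter table (build GRCm38.p6). The sequences include that of the co-receptor gene that was highest in the small intestine (Cd8a). They also include those of a pair whose changes across the IEL arrays matched closely (Cd27 and Cd5). Each runs 5′ to 3′ on the gene's own strand, from 250 bases before the annotated start to 50 bases after it. Capitals mark matches, on either strand, to short words known for families of lymphocyte transcription factors: AGGAAG for ETS factors, TGTGGT for RUNX factors, CAGCTG for E-box binding factors, AGATAA for factors of the GATA family, and CTTTGA for TCF/LEF factors.
Cd8a, chr6:71373177-71373476, plus strand: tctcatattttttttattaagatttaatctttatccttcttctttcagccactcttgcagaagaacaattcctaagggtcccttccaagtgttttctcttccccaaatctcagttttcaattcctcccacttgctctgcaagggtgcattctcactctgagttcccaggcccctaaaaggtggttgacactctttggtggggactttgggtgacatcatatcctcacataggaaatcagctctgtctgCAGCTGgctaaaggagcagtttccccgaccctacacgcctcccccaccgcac
Cd27, chr6:125236978-125237277, minus strand: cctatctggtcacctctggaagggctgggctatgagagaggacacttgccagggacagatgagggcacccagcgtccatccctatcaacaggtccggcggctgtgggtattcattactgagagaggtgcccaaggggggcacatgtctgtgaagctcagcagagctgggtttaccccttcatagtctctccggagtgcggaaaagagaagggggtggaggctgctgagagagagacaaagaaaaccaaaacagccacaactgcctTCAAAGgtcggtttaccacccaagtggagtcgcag
Cd5, chr19:10738925-10739224, minus strand: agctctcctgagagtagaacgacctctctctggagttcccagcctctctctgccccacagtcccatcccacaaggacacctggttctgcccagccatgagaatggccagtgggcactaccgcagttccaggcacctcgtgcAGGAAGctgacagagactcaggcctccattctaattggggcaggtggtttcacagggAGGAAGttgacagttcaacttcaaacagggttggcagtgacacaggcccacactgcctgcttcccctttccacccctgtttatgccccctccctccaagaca

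The Cd8a window held 1 match, to CAGCTG, which begins 2 bases before the start. This word lay in 16.3% of the 32817 promoter windows of the same length. The Cd27 window held 1 match, to the reverse complement of CTTTGA, a word found in 16.0% of all windows. In the Cd5 window there were 2 matches, both to AGGAAG, which occurs in 35.4% of windows. The RUNX word (16.8% of windows) and the GATA word (11.2%) had no match in any of the 3. No pair of matches overlapped. The words are shared by many promoters, so the matches describe the sequences only. In the same RefSeq table Cd8b1 and Cd8a lay next to each other on chromosome 6, with 0 protein-coding genes between them.

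The labelled cell type was checked first. Cd3e, which encodes CD3 epsilon of the T cell receptor complex, had levels of 9.49, 9.17 and 9.43 on the small intestinal, colon and recolonized IEL arrays but 3.72 on the LP-labelled array, where the epithelial adhesion gene Epcam was at 9.20. All 6 measured T cell markers had levels at or above the 75th percentile of genes on the 3 IEL arrays, and 0 of 6 did so on that array. All 10 pan-epithelial markers exceeded that percentile there, and their median level was 8.10 against 6.25, 4.40 and 5.01 on the 3 IEL arrays in the same order. The content of the LP-labelled array therefore went against its label, and results that rest on it are kept apart below. The colon IEL array also carried red cell genes, with a median level of 8.75 over 4 measured markers against 3.86 on the small intestinal and 3.37 on the recolonized array. The small intestinal IEL array carried enterocyte and Paneth cell genes, with a median level of 9.86 over 9 measured markers against 2.23 and 2.78 on the colon and recolonized arrays, and all 9 were called lower on both. Colonocyte and goblet cell genes had median levels of 7.02, 6.01 and 7.92 over 8 measured markers on the small intestinal, colon and recolonized arrays. Between the colon arrays, 5 of these 8 were called higher in the recolonized sample and 0 lower, against 6.04% and 3.06% of all genes. The part of these cells in the differences below, the small intestine to colon contrast and that of the colon arrays included, was not tested. In bulk RNA of this kind, fewer cells of a type and less RNA per cell cannot be told apart.

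With 1 array per group there is no replicate, and no difference below has an error or a test. Levels are the deposited log2 values, and a difference of 1 is 2-fold. A gene was called higher or lower when it differed by at least 2-fold and its level on the brighter array reached the median gene of that array. As a yardstick for small differences, the SD of the log2 differences over 60 ribosomal protein genes was 0.56 between colon and small intestinal IEL, 0.54 between recolonized colon and small intestinal IEL and 0.60 between the colon IEL arrays. Levels of different genes come from different probes, so only the same gene, or the change in a gap between genes, is compared across arrays.

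**Figure D1:**
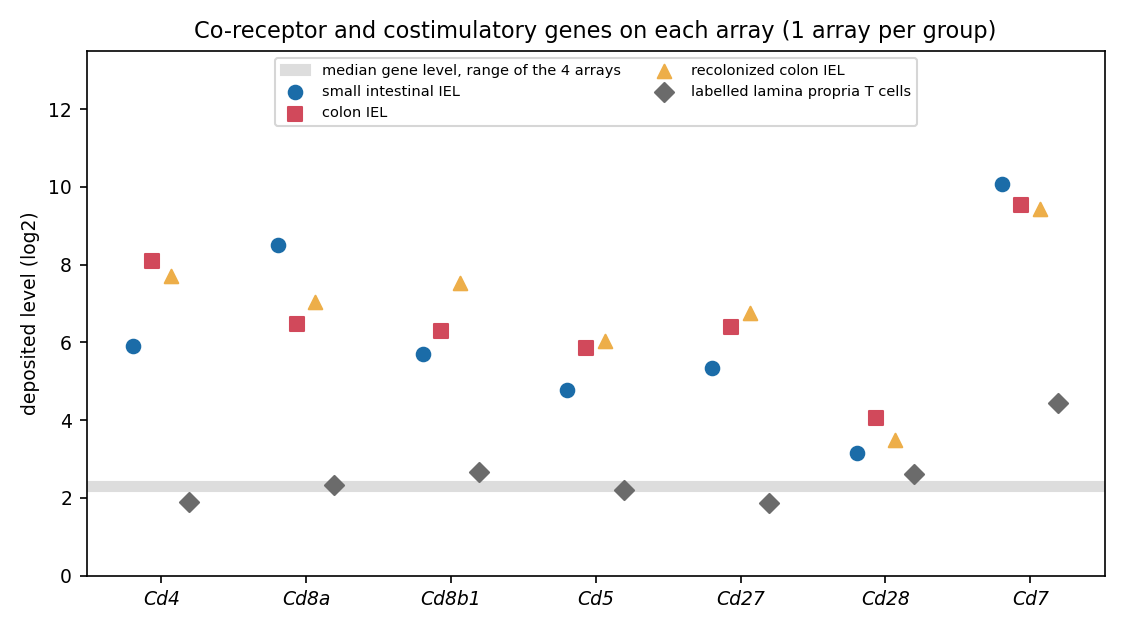
Deposited log2 levels (vertical axis) of the 7 genes (horizontal axis) on the 4 arrays, 1 point per array, with no error bars since each group is 1 array; the grey band spans the median gene levels, 2.18 to 2.41. Cd8a is highest on the small intestinal IEL array at 8.51, Cd4 is highest on the colon IEL array at 8.09, and every gene is lowest on the LP-labelled array.

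Among the IEL arrays, Cd4 and Cd8a divided by gut region, whereas Cd8b1 as deposited did so less clearly. Cd4, carried by helper and regulatory T cells, had a level of 5.91 in small intestinal IEL, 8.09 in colon IEL and 7.70 in recolonized colon IEL. Both colon arrays thus stood above the small intestinal one, by 2.18 (4.55-fold) and 1.80 (3.47-fold), and differed from each other by 0.39, less than the ribosomal yardstick. Cd8a, the CD8 alpha chain, was at 8.51, 6.48 and 7.04 in the same order. Its order was the opposite of that of Cd4, with colon IEL lower by 2.02 (4.07-fold) and recolonized colon IEL lower by 1.47 (2.77-fold). Cd8b1, the beta chain, was at 5.71, 6.28 and 7.52. It did not follow Cd8a, for it was lowest on the small intestinal array and highest on the recolonized one, which exceeded the small intestinal array by 1.81 (3.51-fold) and the unmanipulated colon array by 1.24 (2.36-fold). The step of 0.57 from small intestinal to unmanipulated colon IEL was about the size of the yardstick.

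The gap between the CD8 chains is the log2 level of Cd8a minus that of Cd8b1. It was 2.79 in small intestinal IEL, 0.20 in unmanipulated colon IEL and −0.49 in the recolonized sample. The absolute size of a gap depends on the probes, whereas its change between arrays does not depend on any shift that both genes share. The gap changed by −2.59 from small intestinal to colon IEL, a 6.03-fold smaller ratio of alpha to beta chain transcript, and by −3.28 (9.71-fold) from small intestinal to recolonized colon IEL. Both comparisons use the same small intestinal array. Between recolonized and unmanipulated colon IEL the change was −0.69 (1.61-fold). Quantile normalization gave −2.64, −3.26 and −0.62 for these changes, and a correction for level by lowess gave −2.65, −3.36 and −0.68. The gap thus moved by less than 0.10 under either, whereas the differences of the single chains moved by more.

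**Figure D2:**
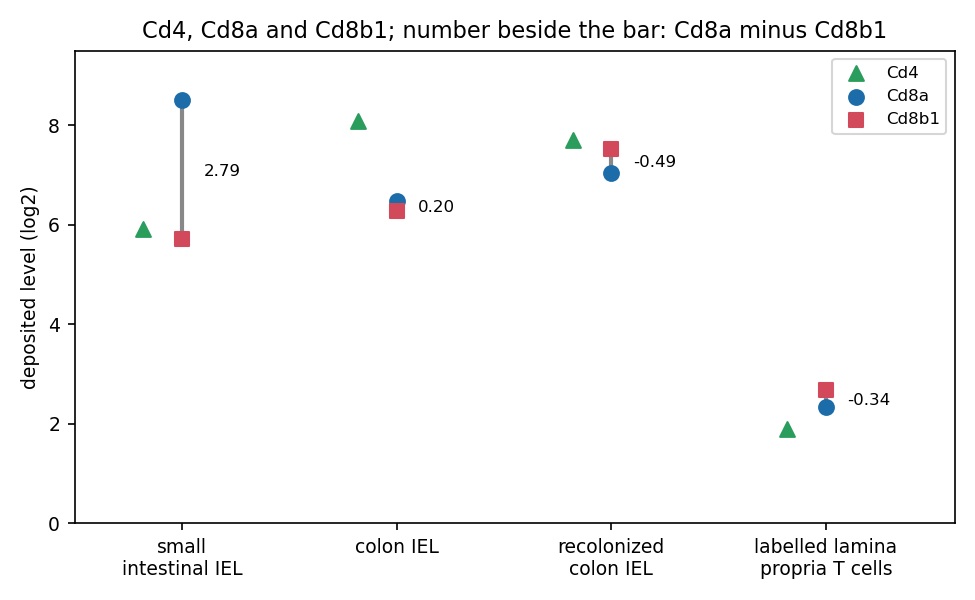
Deposited log2 levels (vertical axis) of Cd4, Cd8a and Cd8b1 on each of the 4 arrays (horizontal axis, 1 array per group and no error bars), with a grey bar joining the CD8 chains and the gap printed beside it. The bar is long on the small intestinal IEL array (2.79) and short on both colon IEL arrays (0.20 and −0.49), and the Cd4 point is lower on the small intestinal array than on both colon arrays.

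Cd4 was also set against each CD8 chain. The level of Cd4 minus that of Cd8a was −2.60 on the small intestinal, 1.61 on the colon and 0.67 on the recolonized IEL array. Its change was 4.21 from small intestinal to colon IEL and 3.27 from small intestinal to recolonized colon IEL. Against the beta chain, the values were 0.20, 1.81 and 0.18. The small intestinal and the recolonized array thus had nearly the same balance of Cd4 and Cd8b1, with a change of −0.015 between them, and the unmanipulated colon array stood apart from both, by 1.62 from the former and 1.63 from the latter.

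The receptors that conventional T cells carry were mostly higher in the colon. Cd5, a scavenger-type receptor that dampens T cell receptor signals, was at 4.77 on the small intestinal, 5.86 on the colon and 6.02 on the recolonized IEL array. Cd27, a TNF receptor family member that binds CD70 and supports T cell survival, was at 5.34, 6.40 and 6.76. These genes ran side by side. Each was just over 2-fold higher in colon than in small intestinal IEL (1.09 for Cd5 and 1.07 for Cd27). In recolonized colon IEL they stood 1.25 and 1.42 above small intestinal IEL. The colon arrays differed by only 0.16 and 0.36, less than the ribosomal yardstick. Both of these signs turned under quantile normalization, under lowess and relative to the CD3 chains. Once centred on their own means over the 3 IEL arrays, the profiles of Cd5 and Cd27 lay 0.087 apart (root mean square), the smallest distance among the 21 pairs of the 7 genes. The largest was 1.80, between Cd4 and Cd8a.

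Cd28, the receptor for CD80 and CD86 that gives the main costimulatory signal to naive T cells, was at 3.14 on the small intestinal IEL array, the 67.2nd percentile of genes there, at 4.06 in colon IEL (87.7th percentile) and at 3.48 in recolonized colon IEL (77.0th). Colon IEL were higher than small intestinal IEL by 0.91 (1.88-fold) and recolonized colon IEL by 0.34, both short of 2-fold. Cd7, an immunoglobulin family receptor of T and natural killer cells that is abundant on natural IEL, was at 10.08, 9.52 and 9.44, above the 99th percentile of genes on each of these arrays. With a range of 0.63 it varied least of the 7 among the IEL arrays, and the small intestinal array was the highest.

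In counts, 3 of the 7 genes (Cd4, Cd5 and Cd27) were called higher in colon than in small intestinal IEL, against 5.98% of the 12551 genes that passed the level floor, and 1 (Cd8a) was called lower, against 24.4%. The share called lower over all genes was large, so a single lower member of 7 is no more than the background. For recolonized colon against small intestinal IEL, 4 of 7 were called higher (Cd4, Cd8b1, Cd5 and Cd27; background 4.76% of 12379 genes) and 1 lower (Cd8a; background 17.9%). The median difference over the 7 genes was 0.91 in the former comparison and 1.25 in the latter, beside medians of −0.30 and −0.20 over all genes that passed the floor. Between recolonized and unmanipulated colon IEL, 1 of 7 was called higher (Cd8b1; background 6.04% of 12443 genes) and 0 lower (background 3.06%), with a median of 0.16 beside 0.13 over all genes. These 3 comparisons are not independent, since any one of them is the difference of the other two.

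**Figure D3:**
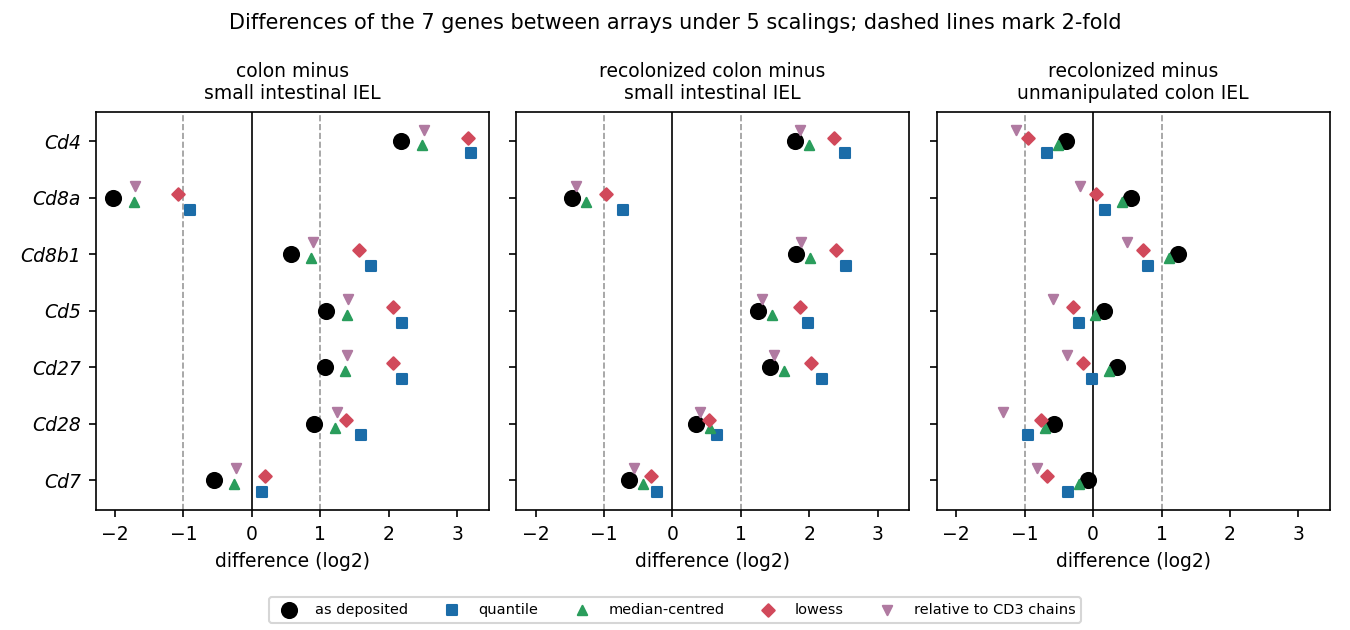
Differences in log2 level (horizontal axis) of the 7 genes (vertical axis) in the 3 comparisons among IEL arrays, as deposited (large black points) and under 4 other scalings; dashed lines mark 2-fold and there are no error bars, since each group is 1 array. Cd4, Cd5 and Cd27 stay right of 2-fold and Cd8a stays left of 0 under every scaling drawn for both comparisons with small intestinal IEL, whereas in the right panel Cd5, Cd27 and Cd8a cross 0.

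The direction of these differences was checked against other scalings. Over all genes, quantile normalization moved the median difference of colon against small intestinal IEL by 0.39 and that of recolonized colon against small intestinal IEL by 0.30. Genes called higher made up 19.7% of all calls between colon and small intestinal IEL as deposited but 49.6% with quantile normalization, 42.1% with median centring and 39.7% with lowess. For recolonized colon against small intestinal IEL that share was 21.0% as deposited and 49.2%, 38.0% and 37.7% under the same scalings. Between the colon arrays it was 66.3% as deposited and 48.8%, 48.2% and 46.6%. Relative to the CD3 chains, a scaling described below, the shares of the 3 comparisons were 44.1%, 26.3% and 3.52%. Cd4 was higher in colon than in small intestinal IEL by 2.18 to 3.20 under all scalings, and Cd8a was lower by −2.02 to −0.90, so that quantile normalization left it short of 2-fold. Cd8a also fell short of 2-fold for recolonized colon against small intestinal IEL under quantile normalization (−0.72) and the lowess correction (−0.98). Cd8b1 exceeded 2-fold between colon and small intestinal IEL under quantile normalization (1.74) and lowess (1.57). Between the colon arrays, where it was called higher as deposited, Cd8b1 fell short of 2-fold under both (0.80 and 0.73). The sign of Cd7 between colon and small intestinal IEL turned to 0.15 and 0.20 under the same scalings, as deposited −0.56.

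A scaling to T cell transcripts was also used, in which each difference is taken relative to the median difference of the CD3 chain genes Cd3d, Cd3e and Cd3g. These genes differed between colon and small intestinal IEL by 0.10, −0.32 and −1.22, and between recolonized and unmanipulated colon IEL by 0.90, 0.26 and 0.74. Relative to their median, Cd4 was higher in colon than in small intestinal IEL by 2.51, Cd5 by 1.41, Cd27 by 1.39 and Cd28 by 1.24, and Cd8a was lower, at −1.70. Between the colon arrays the same scaling put Cd8b1 at 0.50, short of 2-fold, and Cd4 and Cd28 at −1.13 and −1.32 in the recolonized sample. Under it 24.4% of all tested genes were at least 2-fold lower there and the median gene was at −0.61, so these 2 of 7 lower members are near the background. The 3 chains did not move alike, so the choice of chain bears on these values.

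The LP-labelled array had the lowest level of all 7 genes. Cd4 was at 1.89 there and Cd27 at 1.86, both under the array's median gene level of 2.18. Cd5 was at 2.21, Cd8a at 2.33, Cd28 at 2.61 and Cd8b1 at 2.67, between the 50th and the 60th percentile, and Cd7 at 4.43, the 79.4th percentile. Of the 7 genes, 6 were called higher on each of the 3 IEL arrays than on this array, against 3.52% of 11428 genes, and the exception was Cd28. Separately, 6 of 7 were called higher in small intestinal IEL (background 8.76%), 7 in colon IEL (10.5%) and 6 in recolonized colon IEL (9.41%), and 0 of 7 were called lower in each (background 15.7%, 34.7% and 30.3% in the same order). The largest of these differences were 6.20 for Cd4 in colon IEL, 6.17 for Cd8a in small intestinal IEL and 5.81 for Cd4 in recolonized colon IEL. Relative to the CD3 chains, which were higher by a median of 5.42 to 5.77 on the IEL arrays, none of the 7 reached 2-fold higher on all 3. The gap between the CD8 chains was −0.34 on this array, where both genes lay near the median gene, so that value has little meaning. All these differences set T cell transcripts against an array rich in epithelial transcripts, and cannot be read as epithelium against lamina propria.

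Genes of similar pattern were found for each of the 7 by the root mean square distance between profiles, each centred on its own mean over the 4 arrays, among 12622 other genes. The step between the LP-labelled array and the IEL arrays weighs most in this measure. Nearest to Cd8a were the chemokine gene Ccl5 (distance 0.25), the natural killer receptor chain Klrd1 (0.27) and the cytotoxic granule gene Nkg7 (0.30). Ccl5, for one, was at 11.12 on the small intestinal, 9.05 on the colon and 9.83 on the recolonized IEL array, and at 4.45 on the LP-labelled array. Nearest to Cd8b1 were Thy1, a surface glycoprotein of T cells (0.16), the galectin gene Lgals1 (0.21) and the chemokine gene Xcl1 (0.29). Thy1 was at 4.72, 5.04 and 6.59 on the IEL arrays, with the recolonized array highest as for Cd8b1. The chains of CD8 had no nearest gene in common. The same held for every other pair of the 7 genes, so it does not set these chains apart.

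Nearest to Cd4 was Il7r, the interleukin-7 receptor of naive and memory T cells, at 6.44, 7.71 and 8.03 on the IEL arrays, but at a distance of 0.41, so no gene followed Cd4 closely. It was followed by the leukocyte tetraspanin Cd53 (0.59) and by Cd27 (0.60). Cd5 lay closest to S1pr1, the receptor that lets T cells leave lymphoid organs (0.098), then to Prkcq, a kinase of T cell receptor and CD28 signalling (0.17), and Tmem71 (0.20). S1pr1 was at 4.97, 5.80 and 6.18. Cd27 lay closest to Emp3 (0.11), the intermediate filament gene Vim (0.21) and Emb (0.22). Vim was also on the list of stromal markers, which as a group were higher on the colon arrays, with median levels of 4.04 on the small intestinal, 6.10 on the colon and 5.62 on the recolonized IEL array. Cd7 lay closest to the phosphatase gene Ptpn22 (0.23), Cd3e (0.26) and Cd52 (0.29). The nearest genes to Cd28 were Hsf4 (0.047), Lefty2 (0.057) and Zbtb16 (0.058), which were dim on all arrays, between 1.41 and 3.74, as was Cd28 on most.

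The regulators of the choice between the CD4 and CD8 lineages were followed as a list of 15, of which 13 were measured. Between colon and small intestinal IEL, 3 were called higher and 0 lower of the 12 that passed the floor, namely Lef1, Satb1 and Gata3, beside 5.98% and 24.4% of all genes. The list's median was −0.13. That median turned positive under all 4 other scalings, to between 0.17 and 0.85. Lef1, a partner of TCF-1 in early T cells, was at 3.85 on the small intestinal, 7.14 on the colon and 7.55 on the recolonized IEL array. Satb1, a chromatin organizer that acts on the Cd4 and Cd8 genes in the thymus, was at 3.78, 5.74 and 6.27, and Gata3, which favours the CD4 lineage, at 2.80, 3.82 and 4.29. These 3 regulators were ordered like Cd5 and Cd27, with the small intestinal array lowest. Runx1, Runx3, Tox and Eomes had the same order as deposited, but none of them was called.

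The regulators that most directly set the lineage showed smaller differences as deposited. Zbtb7b (ThPOK), which commits thymocytes to the CD4 lineage, was at 4.13, 3.75 and 3.85 on the IEL arrays, within 2-fold and with a sign that turned under quantile normalization and lowess, and at 4.73 on the LP-labelled array. Runx3, which silences Cd4 in CD8 T cells, was at 4.67, 4.91 and 5.31. The order of Zbtb7b over the IEL arrays was that of Cd8a and the order of Runx3 that of Cd8b1, Cd5 and Cd27. As deposited, all their differences among these arrays were within 2-fold. Under quantile normalization Runx3 exceeded 2-fold over small intestinal IEL in colon (1.34) and recolonized colon IEL (1.35), and likewise under lowess (1.15 and 1.24). In recolonized colon IEL, 4 of 13 regulators were called higher than in small intestinal IEL and 0 lower, with a median of 0.65, beside 4.76% and 17.9% of all genes and their median of −0.20. Against unmanipulated colon IEL, 1 was higher, Bcl11b, a factor of T cell identity, at 6.02 against 4.07, and this stayed above 2-fold under every scaling (1.21 to 1.96).

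Other costimulatory and accessory receptors did not move as a block. All 19 listed receptors were measured. Between colon and small intestinal IEL, 1 was called higher and 5 lower of 18 above the floor, with a median of −0.20. These counts are close to the shares over all genes, 5.98% higher and 24.4% lower, and the median over all genes was −0.30. The lower ones were Cd244a (−1.96), Tnfrsf1b (−1.74), Btla (−1.70), Tnfrsf9 (−1.61) and Cd96 (−1.04), and the higher one was the inhibitory receptor Pdcd1, at 3.03 against 1.95. Under quantile normalization and under lowess 0 of the receptors were called lower, and the sign of Cd96 turned to 0.042 under the former. In recolonized colon against small intestinal IEL, 4 were higher, led by the adhesion receptor Cd2 at 5.67 against 3.77, and 5 were lower, beside 4.76% and 17.9% of all genes. Between the colon arrays all 18 were within 2-fold. Icos, the closest relative of Cd28 on helper T cells, was at 3.52, 3.80 and 4.27, and Cd6, a relative of Cd5, at 4.53, 4.38 and 5.16. Cd40lg, through which CD4 T cells help other cells, was at 1.89, 2.82 and 3.22, higher by 0.93 and 1.32 on the colon arrays.

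**Figure D4:**
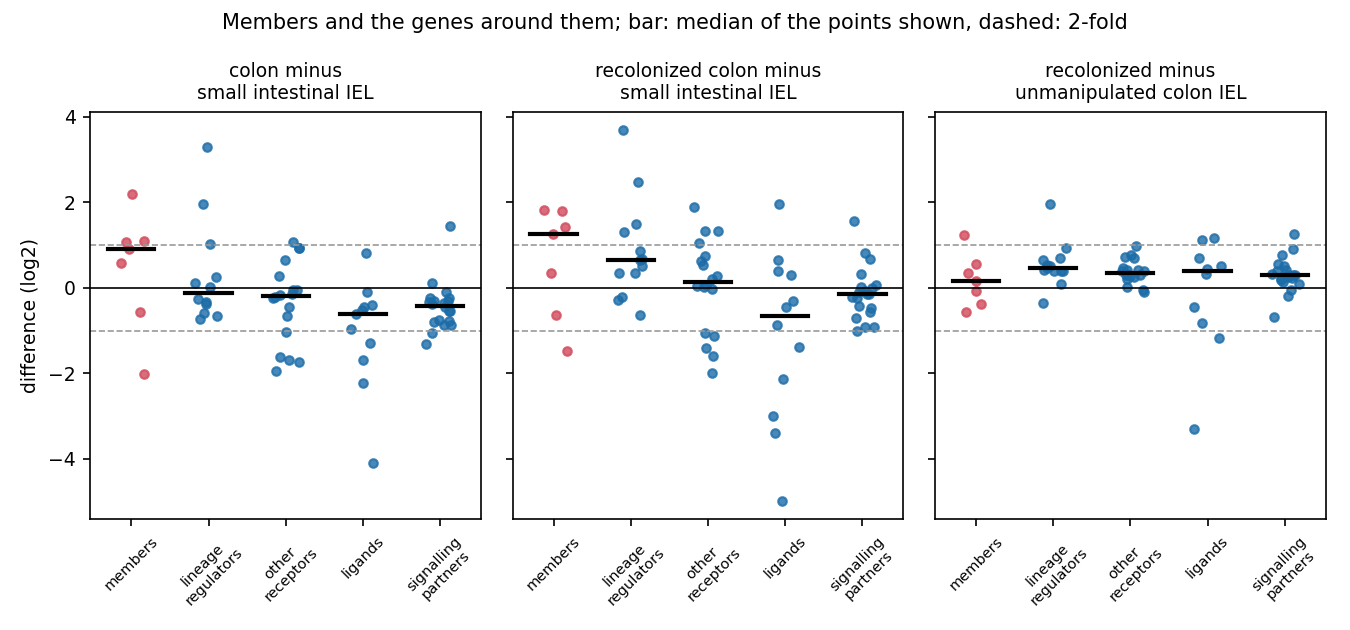
Differences in log2 level (vertical axis) of the 7 members and of the genes of 4 lists that passed the level floor, in the 3 comparisons among IEL arrays; each point is a gene, bars are medians and dashed lines mark 2-fold. The members' median lies at 0.91 and 1.25 in the comparisons with small intestinal IEL, the ligands reach −4.11 (Sectm1b) and −4.99 (H2-Ab1), and most signalling partners lie within 2-fold.

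The ligands were the list with the widest range of differences in each of the 3 comparisons. Of 18 listed, 15 were measured, and between colon and small intestinal IEL 0 were called higher and 4 lower of 11 above the floor. These were Sectm1b, a relative of the human CD7 ligand, at 3.88 against 7.99 (and at 8.44 on the epithelium-rich LP-labelled array), and the MHC class II genes H2-Aa, H2-Ab1 and H2-Eb1, whose products CD4 binds, lower by −2.22, −1.68 and −1.30. Over all genes 5.98% were called higher and 24.4% lower. Under quantile normalization and lowess 2 ligands were still called lower, while H2-Ab1 fell short of 2-fold (−0.68 and −0.81) and so did H2-Eb1 (−0.10 and −0.32). The class II genes were thus highest on the array where Cd4 was lowest of the IEL arrays. H2-Ab1 was at 9.30, 7.62 and 4.31 on the small intestinal, colon and recolonized arrays, which is −3.31 from unmanipulated to recolonized colon IEL. H2-Aa differed by −1.18 in that comparison and H2-Eb1 by −0.83, the latter within 2-fold. B cell and plasma cell markers had median levels of 6.24, 3.09 and 2.64 on these arrays (range 2.77 to 7.64, 2.21 to 5.57 and 1.74 to 3.31 over 7 measured of 8). Their part in the class II differences was not tested. Of the MHC class I genes, to which CD8 binds, B2m was at 11.18, 10.55 and 10.87 and H2-K1 at 8.11, 7.71 and 8.42, all within 2-fold.

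The ligands of CD27 and CD28 themselves were dim. Icosl, the ligand of the receptor Icos, was brighter. It was at 4.9 on the small intestinal, 3.9 on the colon and 3.5 on the recolonized IEL array. Cd70, the ligand of CD27, was at 1.41, 1.67 and 1.65 on the IEL arrays, below the median gene on each, and at 1.13 on the LP-labelled array. Cd80 was at 2.38, 1.93 and 1.93 and Cd86 at 2.65, 2.13 and 1.78, so these ligands of CD28 exceeded the median gene of 2.24 on the small intestinal array but not that of either colon array (2.41 and 2.39). Of the dendritic cell and macrophage markers, whose cells can carry Cd4 or Cd8a in mice, 6 of 10 measured were above the median gene on the small intestinal array, 5 on the colon and 5 on the recolonized array, with medians of 2.87, 2.45 and 2.42. The range was 1.69 to 6.65, 1.84 to 6.40 and 1.83 to 5.74. Flt3, Zbtb46 and Xcr1, which define dendritic cells, were at or below 2.34 on all 4 arrays and under the median gene on each. By contrast, Lyz2, Cd68, Sirpa and Csf1r were above the median gene on each IEL array, with Lyz2 at 6.65, 6.40 and 5.74. Itgax, which IEL also carry, was at 5.24 on the small intestinal array and 2.10 and 2.50 on the colon arrays. The part of such cells in the levels of Cd4 and Cd8a was not tested.

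Of the signalling partners of the 7 receptors, most were within 2-fold. Of 22 listed, 20 were measured; Lck, for one, lacked a single-symbol probe set and was not analysed here. Between colon and small intestinal IEL, 17 of 20 were within 2-fold, with 1 higher and 2 lower, beside 5.98% and 24.4% of all genes. Their median was −0.42, which turned positive under quantile normalization (0.66) and lowess (0.45). The higher gene was Prkcq, at 4.89, 6.33 and 6.46 on the IEL arrays and higher in both colon samples under every scaling. The lower ones were Ptpn6, the phosphatase SHP-1, by −1.31, and the exchange factor Vav1 by −1.05, both short of 2-fold under quantile normalization (−0.11 and 0.031). In recolonized against unmanipulated colon IEL, 19 of 20 were within 2-fold, and Lat, the adaptor downstream of the T cell receptor, was at 6.76 against 5.50. This difference of 1.26 fell short of 2-fold under quantile normalization (0.87), lowess (0.79) and relative to the CD3 chains (0.52). Traf5, which binds the tail of CD27, was at 3.76, 3.02 and 3.53, and Pik3r1, the kinase subunit that CD28 recruits, at 6.81, 6.47 and 6.70.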

How the data were processed

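The authors deposited a table of log2 levels per probe set, for which the submitters' processing notes name Affymetrix Expression Console. Its version, the summarization and the normalization were not given in the sources used here. Of 41345 probe sets, 23521 listed 1 gene symbol in the platform's gene table, 1814 listed several and named no gene, and 16010 were not in it. A gene was represented by its brightest single-symbol probe set (22180 genes). Differences were taken between arrays, with a floor at the 50th percentile on the brighter array and a 2-fold threshold. No test was possible with 1 array per group. The number of arrays limits the precision. Named are the 7 members, the 3 genes nearest to each, and members of lists that moved most or whose role is described. Members and lists were chosen with earlier results of these data known. Alternatives were other folds and floors, the mean of probe sets, quantile normalization, median centring, lowess (span 0.3) and scaling to CD3 chains. The steps were tried on simulated arrays that shared a mean profile, with planted differences. These held no array-wide shift, so that trial does not cover the effects of scaling. Python 3.11.15, pandas 2.3.3 and statsmodels 0.14.6 were used. Probe set coordinates are not printed, for want of a named build.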

Additional observations from a re-analysis of the deposited data

How the results depend on the processing

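No paired analysis was possible because each group had 1 array, and no replicate could be left out. Alternatives that kept each count within 1.5 times, or each CD8 gap within the SD over ribosomal protein genes, made up 57 of 72. Both numbers include the mean of probe sets, which could not change the level of any member. They also include counts without a floor and with a floor at the 75th percentile. All members passed the median floor, and each called member also exceeded the 75th percentile on its brighter array. These floors thus could not change a call of a member, and the share is overstated. For colon against small intestinal IEL, the count of members called higher (3) was 1 at a 3-fold threshold and 5 under quantile normalization and under lowess, and the count called lower (1) was 0 under quantile normalization. For recolonized colon against small intestinal IEL, the count called higher (4) was 2 at 3-fold, and the count called lower (1) was 2 at 1.5-fold and 0 at 3-fold, under quantile normalization and under lowess. Between the colon arrays, the count called higher (1) was 0 at 3-fold, under quantile normalization, under lowess and relative to CD3 chains, and the count called lower (0) was 2 relative to CD3 chains, where 24.4% of all genes were called lower. The count higher on all 3 IEL arrays than on the LP-labelled array (6) was 0 relative to CD3 chains. Signs turned between the colon arrays for Cd27 (−0.011 under quantile normalization, −0.14 under lowess and −0.39 relative to CD3 chains), for Cd5 (−0.21, −0.29 and −0.58 in the same order) and for Cd8a (−0.19 relative to CD3 chains). The sign of Cd7 between colon and small intestinal IEL turned to 0.15 under quantile normalization and 0.20 under lowess. The cause of these changes was not tested. The mean of probe sets changed no call, since each of the 7 genes had 1 probe set. A level near the median gene of an array, as for Cd28 and for all members but Cd7 on the LP-labelled array, limits the size a difference can show.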

Other observations

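Of 8 listed gamma delta T cell genes, 3 were measured through a single symbol, and the receptor constant genes were not analysed here. Blk, a kinase of B cells and of gamma delta T cells, was at 5.29 in small intestinal, 3.16 in colon and 2.62 in recolonized colon IEL, and 2.32 on the LP-labelled array. B cell markers had the same order on these arrays, and their part in the level of Blk was not tested. Sox13, a transcription factor of gamma delta T cells, was at 4.02, 3.18, 3.66 and 3.83, and Cd163l1 at 1.84, 2.16, 2.10 and 2.03, with no array clearly apart. Among natural killer and innate lymphoid cell markers, Klrb1c was below the median gene on all 4 arrays (1.20, 1.59, 1.73 and 1.35). The natural killer receptor Ncr1 was at 2.60, 2.24, 3.76 and 1.81, highest on the recolonized array. Klrb1c, Eomes and Gata3, also on this list, were highest there too. Klre1 (2.6, 1.8, 2.0 and 1.7) and Kit (5.4, 4.9, 5.1 and 5.0) were instead highest on the small intestinal array, so the list did not move as a block.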
